A study of Mus musculus with 12 samples.

Results

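Procollagen is folded, modified and packed for export in the endoplasmic reticulum (ER) before it can form fibres outside the cell, and the 10 genes described here encode proteins of that route. They are the coat proteins Sec24d and Sec23a, the transcription factors Creb3l1 and Creb3l2, the chaperone Serpinh1, the prolyl isomerases Fkbp10 and Fkbp14, and the hydroxylases Plod1, Plod2 and P3h1. The genes were chosen by name with results of these data already known, and which values led to the choice is not recorded. Their calls and folds are therefore a description and not independent evidence of a direction. All 10 were found among 24279 genes, and all 10 were among the 15186 genes with enough counts to be tested.

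The cells were primary fibroblasts from mouse embryos of embryonic day 12.5, and their polyadenylated RNA was sequenced. The mutant cells carry the allele L3P of Rsg1 on both chromosomes (Rsg1L3P/L3P), and the Rsg1 protein, which resembles small GTPases, works with the CPLANE complex in building primary cilia. The design has 4 groups of 3 libraries: fortified mutant, fortified wild type, moderate mutant and moderate wild type. Fortified cells came from F3 mice on a 10 ppm folic acid diet and were grown with 3600 ng/mL folic acid, and moderate cells came from F3 mice on 2 ppm and were grown with 225 ng/mL. Diet and medium changed together, so their contributions cannot be told apart. No source used here says whether the libraries of a group are separate embryos or litters, so the p-values rest on the spread between libraries, which may be technical.

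The 12 libraries held 39339131 to 48475920 counts. Rsg1 itself had 31 to 38 counts in fortified mutant, 32 to 47 in fortified wild type, 32 to 54 in moderate mutant and 19 to 42 in moderate wild type libraries, near the lower limit of what is counted. Its level does not check the allele. All 10 fibroblast markers were present in every group. On the first principal component, which held 30.2% of the variance, moderate wild type 1 and fortified mutant 2 and 3 stood apart at one end (48.2 to 68.0) and moderate wild type 2 and 3 at the other (-68.6 and -53.7), with the other 7 libraries between -18.9 and 4.74. Results are given without the 3 or without the 2 where that matters; each leaves 1 group with a single library. The 3 also had the highest summed neuron markers, 272 to 462 CPM, against 87.7 to 165 CPM in the other 9. They were highest too for skeletal muscle markers, 2687 to 3882 CPM, against at most 2372 CPM in the others. For neural progenitor and glia markers they had 800.3 to 946.2 CPM, against at most 698.3 CPM. For epithelium markers they had 17.97 to 40.12 CPM, against at most 17.29 CPM. The part of any such cells in their values was not tested. More than 1000 counts of Xist, the transcript of the inactive X chromosome, were found in 8 libraries: all 6 mutant ones, moderate wild type 1 and fortified wild type 1. More than 1000 counts of the Y-linked gene Eif2s3y were found in moderate wild type 2 and 3 and fortified wild type 3, so genotype and sex are mixed. Fortified wild type 2 had 9 counts of Xist and 0 of the Y-linked genes Eif2s3y, Ddx3y, Kdm5d and Uty, so these genes do not give its sex. That library had the highest CPM of the 12 for Sec24d, Sec23a, Serpinh1, Fkbp10, Fkbp14 and P3h1. Among 13 marker lists, 1 separated the folic acid levels over both genotypes: the summed level of 4 tendon markers was 201.5 to 452 CPM in the 6 fortified libraries and 60.4 to 171 CPM in the 6 moderate ones.

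In fibroblasts, newly made collagen chains are hydroxylated on proline and lysine, fold into a triple helix with the help of chaperones and isomerases, and leave the ER in carriers built by the COPII coat. Because the rigid procollagen trimer is longer than an ordinary coated vesicle is wide, its export depends on particular coat subunits and cargo receptors. Creb3l1 and Creb3l2 are membrane-bound transcription factors, cut free by proteases of the Golgi, that are known in mouse bone and cartilage to activate genes of collagen synthesis and secretion. In people, loss of several of these proteins gives brittle bones or lax joints.

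The promoter windows of the coat genes are shown because Sec24d and Sec23a were the members that shared a match to TGACGTGG, the letters bound by ATF6 and XBP1 in the unfolded protein response and close to the element bound by the CREB3 family. The Fkbp14 window at its upstream start is shown beside them because Fkbp14 had the largest folic acid difference and that window holds none of the motifs searched. The other Fkbp14 window, at its downstream start (chr6:54593125-54593424), is not shown and holds CCACG and CCAAT but not TGACGTGG. Sequences and start sites are from RefSeq, build GRCm38.p6, 250 bases before to 25 bases after the start, 5′ to 3′ on the gene's strand, and capitals mark TGACGTGG. The windows are chr3:123267246-123267520 on the plus strand for Sec24d, chr12:59011993-59012267 on the minus strand for Sec23a and chr6:54597320-54597594 on the minus strand for Fkbp14.
Sec24d: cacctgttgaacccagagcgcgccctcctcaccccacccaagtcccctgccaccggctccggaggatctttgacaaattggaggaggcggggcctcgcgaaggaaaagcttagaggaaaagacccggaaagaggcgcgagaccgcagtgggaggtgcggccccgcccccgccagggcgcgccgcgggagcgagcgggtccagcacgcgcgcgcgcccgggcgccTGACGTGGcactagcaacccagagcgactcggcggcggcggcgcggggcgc
Sec23a: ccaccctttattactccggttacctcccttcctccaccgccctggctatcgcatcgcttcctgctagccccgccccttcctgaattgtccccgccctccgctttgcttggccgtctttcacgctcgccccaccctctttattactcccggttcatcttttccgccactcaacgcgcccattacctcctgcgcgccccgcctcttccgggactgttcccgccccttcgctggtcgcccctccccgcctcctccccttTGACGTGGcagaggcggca
Fkbp14: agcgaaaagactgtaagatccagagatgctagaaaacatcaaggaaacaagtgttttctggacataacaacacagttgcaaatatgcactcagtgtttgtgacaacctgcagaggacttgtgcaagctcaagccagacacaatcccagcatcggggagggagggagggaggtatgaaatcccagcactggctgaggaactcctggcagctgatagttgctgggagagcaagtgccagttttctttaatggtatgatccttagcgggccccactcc

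The match began 26 bases before the start of Sec24d and 7 bases after the start of Sec23a. Windows of 300 bases (250 before to 50 after a start) were found for 7 of the 10 genes, 9 windows in all, and Creb3l1, Fkbp10 and Plod2 had none in the table used. Each motif was searched on both strands. TGACGTGG lay in 2 of the 9 windows and in 0.676% of all 32851 windows, and TGACGT, which it contains, in 3 of the 9 and 7.51% of all. The full cyclic AMP element TGACGTCA lay in 0 of the 9 windows and in 1.79% of all. CCACG, whose reverse strand overlaps TGACGTGG, lay in 7 of the 9 and 32.8% of all, GGGCGG in 7 and 35.7%, and CCAAT in 5 and 37.4%. The 2 longer ER stress elements, ERSE and ERSE-II, lay in 0 of the 9, and in 0.119% and 0.0365% of all windows. A match is a run of letters and not a shown site, and the lack of one says nothing of a factor.

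Levels were compared between the 10 genes per transcript length, as transcripts per 1000000 (TPM). Serpinh1 was the most abundant, with a mean of 2096 TPM ± 382 (SD over 12 libraries), followed by Fkbp10 at 309 ± 81.7 and Plod2 at 142 ± 25.1. Sec23a averaged 117 ± 15.2 TPM, P3h1 98.0 ± 21.5, Creb3l1 91.1 ± 34.3 and Sec24d 82.6 ± 23.9, neighbours whose ranges over libraries overlap. Creb3l2 averaged 58.9 ± 14.4 TPM, Plod1 50.9 ± 16.7 and Fkbp14 31.0 ± 9.49. Serpinh1 thus stood clear of the rest in every library, and made up 54.7 to 63.0% of the counts summed over the 10 genes. Within a gene, values below are counts per 1000000 (CPM) scaled for composition, and a gene was called when its adjusted p in edgeR's quasi-likelihood test, with Benjamini-Hochberg adjustment over the 15186 tested genes, was under 0.05.

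**Figure D1:**
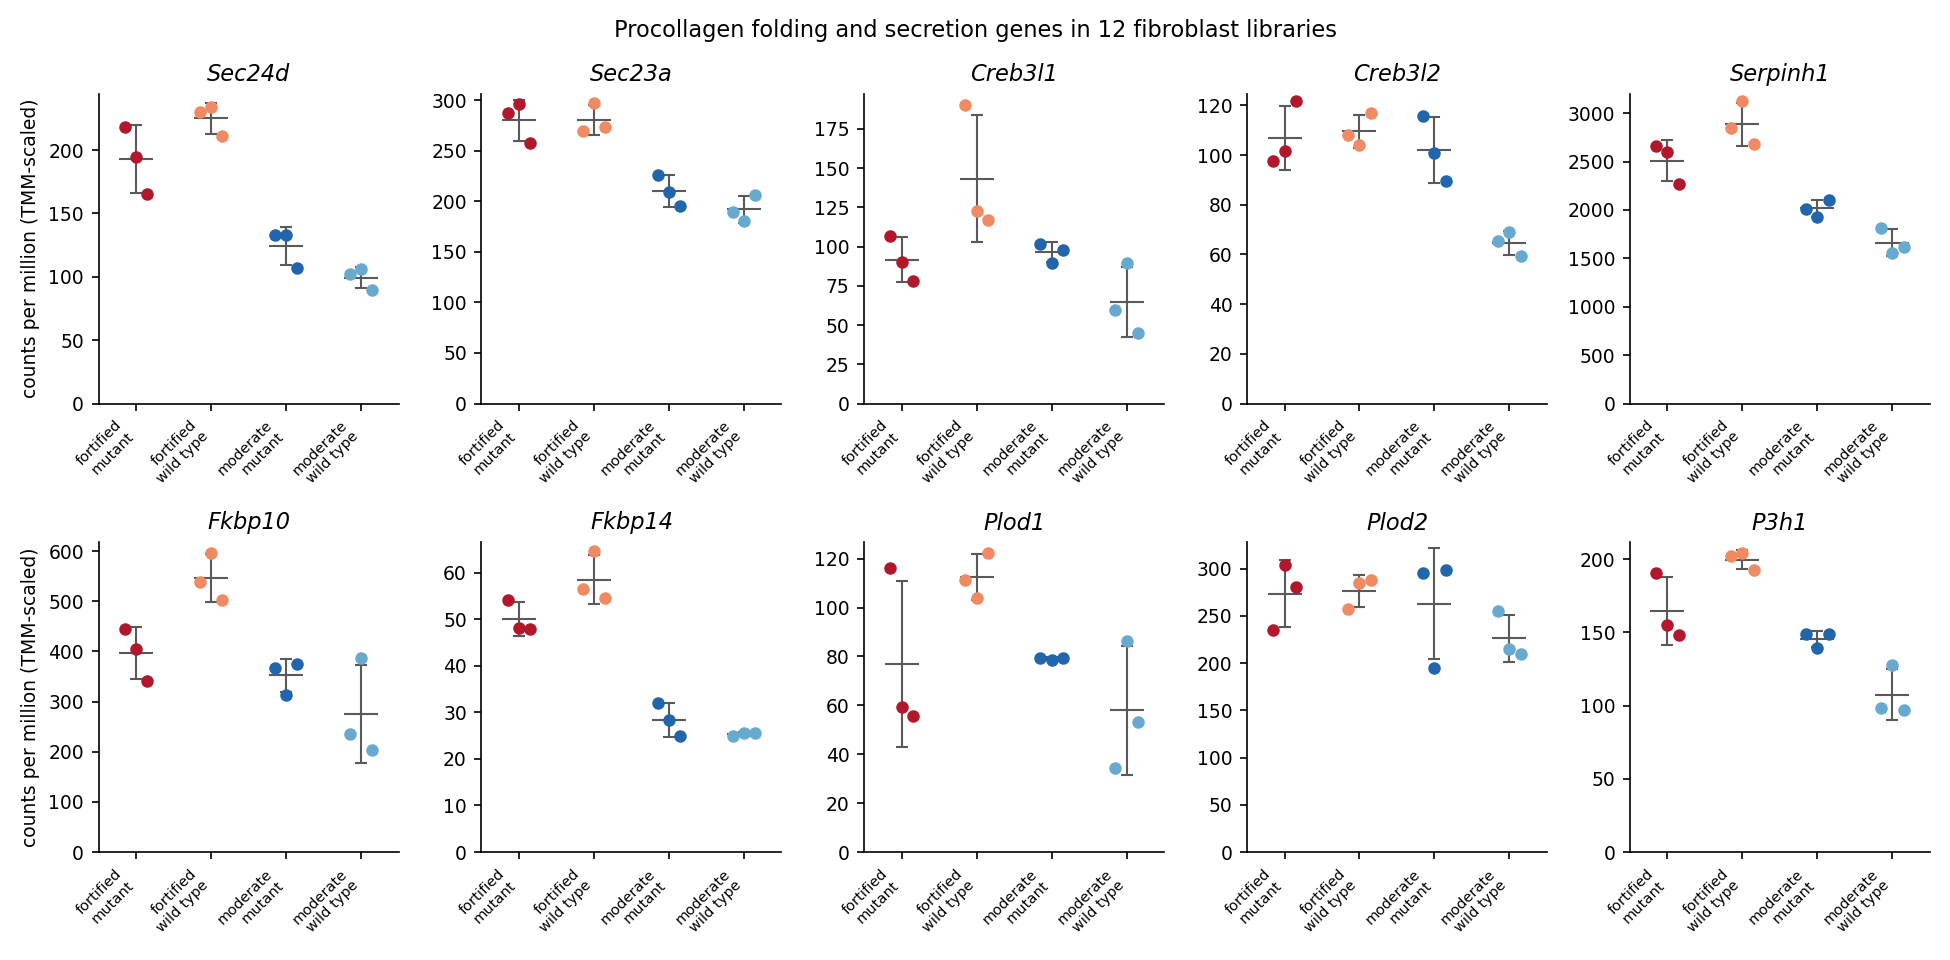
Level of each of the 10 genes in every library, in CPM on a linear axis that starts at 0. Points are libraries, horizontal lines are means and bars are SDs of the 3 libraries of a group; for Sec24d, Sec23a, Serpinh1 and Fkbp14 all 6 fortified libraries lie above all 6 moderate ones.

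With folic acid averaged over genotypes, 7 of the 10 genes rose in fortified cells, and 8.9% of all tested genes rose in the same comparison (17.8% changed in either direction). The 7 were Sec24d, Sec23a, Creb3l2, Serpinh1, Fkbp10, Fkbp14 and P3h1. Creb3l1, Plod1 and Plod2 had positive differences that did not pass. The median log2 difference of the 10 genes was 0.54, against 0.00 for all tested genes. For 4 genes, Sec24d, Sec23a, Serpinh1 and Fkbp14, every fortified library lay above every moderate one in CPM, a pattern held by 2.77% of tested genes. On TPM, Sec23a and Serpinh1 overlapped between the folic acid levels. On the log2(TPM + 1) scale, where the median tested gene lay at -0.15, limma called 3 of the 10, Sec24d, Sec23a and Fkbp14, and 3.87% of all tested genes, as higher. Once each library was centred on its median it called 7 of the 10 and 10.3% of all as higher. The tendon markers separated the same libraries, and their part in these differences was not tested. In bulk RNA, fewer cells of a type and less RNA per cell cannot be told apart. Among the 8 libraries with Xist, of which 1 per folic acid level is wild type, edgeR called 0 of the 10 genes and 0 genes in all, 9 of the 10 and 3072 in all being at an unadjusted p under 0.05. The log2 differences there were 0.99 for Fkbp14 (adjusted p = 0.0985) and 0.89 for Sec24d (adjusted p = 0.114).

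Sec24d, the COPII coat subunit that picks cargo for export, stood at 219, 195 and 166 CPM in the fortified mutant libraries and at 229.8, 234 and 211 CPM in the fortified wild type ones. It stood at 133, 133 and 107 CPM in moderate mutant and at 103, 106 and 89.8 CPM in moderate wild type libraries. The lowest fortified library was therefore above the highest moderate one. Averaged over genotypes the log2 difference was 0.91 (SE 0.10, edgeR adjusted p = 0.00192), a 1.88-fold rise. Within genotypes it was 0.63 (SE 0.15, adjusted p = 0.0333) in mutant cells and 1.18 (SE 0.15, adjusted p = 0.0228) in wild type cells, both by edgeR.

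Sec23a, the partner subunit of the inner coat that drives GTP hydrolysis by Sar1, moved less. It had 288, 296 and 257 CPM in fortified mutant and 269, 297 and 274 CPM in fortified wild type libraries, against 226, 209 and 195 CPM in moderate mutant and 189, 180.3 and 206 CPM in moderate wild type libraries. Fortified libraries again lay above moderate ones without overlap, while the genotypes overlapped at each folic acid level. Averaged over genotypes, Sec23a differed by 0.48 on the log2 scale (SE 0.09, edgeR adjusted p = 0.00784), 1.40-fold. It was 0.42 (adjusted p = 0.0677) in mutant and 0.55 (adjusted p = 0.0814) in wild type cells, neither called by edgeR. Sec23a was the 1 gene of the 10 whose highest group mean was not in fortified wild type, with 280.1 CPM ± 20.3 in fortified mutant and 279.9 ± 14.9 in fortified wild type (SD, n = 3 each).

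The ratio of the coat subunits within a library needs no scaling between libraries. The log2 ratio of Sec24d to Sec23a counts was -0.54 ± 0.13 in fortified mutant, -0.31 ± 0.08 in fortified wild type, -0.76 ± 0.11 in moderate mutant and -0.95 ± 0.22 in moderate wild type libraries (SD, n = 3 each). Every fortified library was above every moderate one, from -0.64 up in the fortified libraries and from -0.65 down in the moderate ones. The gap between the nearest libraries was thus small beside the spread within groups.

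**Figure D2:**
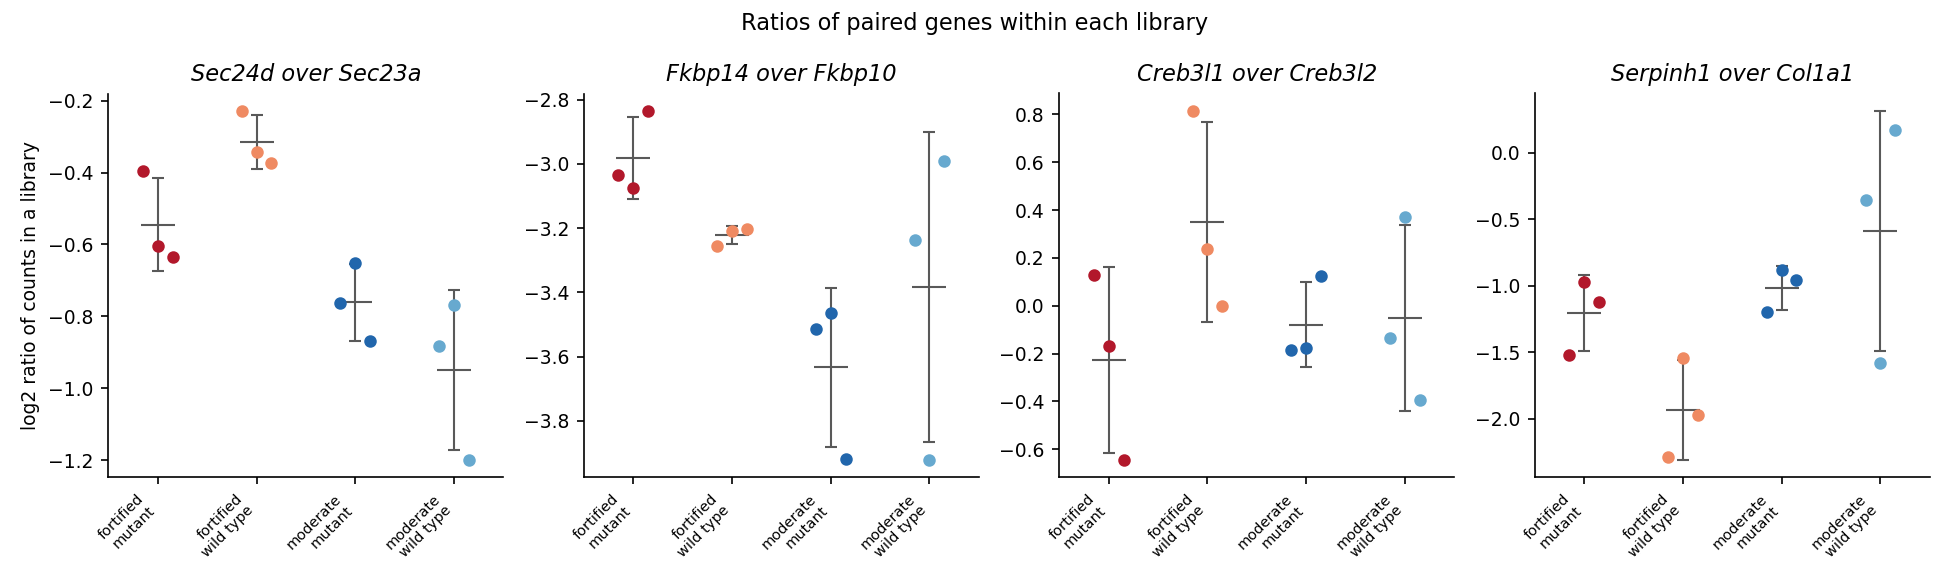
Log2 ratio of the counts of 2 genes in the same library, for Sec24d over Sec23a, Fkbp14 over Fkbp10, Creb3l1 over Creb3l2 and Serpinh1 over Col1a1. Points are libraries, lines are means and bars SDs of 3 libraries; the fortified libraries lie above the moderate ones for the coat subunits, and Serpinh1 over Col1a1 is lowest on average in fortified wild type at -1.94.

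Creb3l1, which in mouse bone activates the type I collagen gene Col1a1, had 106.5, 90.5 and 77.9 CPM in fortified mutant and 190.1, 123 and 117 CPM in fortified wild type libraries. It had 102, 89.3 and 97.6 CPM in moderate mutant and 59.7, 89.2 and 45.2 CPM in moderate wild type libraries. Mutant libraries were all below wild type at fortified folic acid and all above it at moderate folic acid, while fortified mutant 3 lay below moderate wild type 2. The nearest libraries at moderate folic acid, mutant 2 and wild type 2, stood at 89.3 and 89.2 CPM. The folic acid difference was 1.15 on the log2 scale in wild type cells (SE 0.25, edgeR adjusted p = 0.0691). It was -0.07 in mutant cells (SE 0.25, edgeR adjusted p = 0.892). Neither was called, nor was the average of 0.54 (edgeR adjusted p = 0.0561).

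Creb3l2, known in mouse cartilage to activate Sec23a, showed 1 low group rather than 1 high one. It had 97.5, 102 and 122 CPM in fortified mutant, 108, 104 and 117 CPM in fortified wild type, 116, 101 and 89.5 CPM in moderate mutant and 65.5, 69.1 and 59.5 CPM in moderate wild type libraries. The 3 moderate wild type libraries were below the other 9, which overlapped one another. The averaged log2 difference was 0.41 (SE 0.10, edgeR adjusted p = 0.0176), made of 0.07 in mutant cells (adjusted p = 0.804) and 0.76 in wild type cells (adjusted p = 0.0539). Creb3l2 was no longer called on average without the 3 libraries at one end of the first component, nor without the 2 at the other end.

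Serpinh1 encodes the collagen-specific chaperone HSP47, which binds the folded triple helix and rides with it out of the ER. It had 2657, 2599 and 2266 CPM in fortified mutant and 2850.3, 3124 and 2678 CPM in fortified wild type libraries, against 2009.7, 1931 and 2108 CPM in moderate mutant and 1815, 1552 and 1619.8 CPM in moderate wild type libraries. In CPM the 4 groups did not overlap for Serpinh1: fortified wild type was highest, then fortified mutant, moderate mutant and moderate wild type. On TPM the mutant groups overlapped, at 2121 TPM ± 112 in fortified and 2157 ± 60.0 in moderate mutant libraries (SD, n = 3 each). Scaled by library totals alone, fortified mutant 1 lay above fortified wild type 3. The averaged log2 difference was 0.55 (SE 0.11, edgeR adjusted p = 0.0098), 1.47-fold. It was 0.31 in mutant cells (adjusted p = 0.238) and 0.79 in wild type cells (adjusted p = 0.0583), neither called by edgeR.

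Fkbp14, an ER prolyl isomerase that acts on collagen, had the smallest p of the 10 genes. It had 54.3, 48.1 and 47.9 CPM in fortified mutant and 56.5, 64.6 and 54.5 CPM in fortified wild type libraries, against 32.1, 28.4 and 24.8 CPM in moderate mutant and 25.0, 25.5 and 25.7 CPM in moderate wild type libraries. All fortified libraries were above all moderate ones, and the 3 moderate wild type libraries lay closest together. The averaged log2 difference was 1.01 (SE 0.10, edgeR adjusted p = 0.00113), 2.02-fold, and it ranked 4 among all tested genes. It was 0.82 (SE 0.14, adjusted p = 0.0125) in mutant and 1.21 (SE 0.14, adjusted p = 0.014) in wild type cells, both called by edgeR.

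Fkbp10, the related isomerase that also aids the lysyl hydroxylation of collagen ends, varied more. It had 444, 406 and 342 CPM in fortified mutant and 539, 597 and 502 CPM in fortified wild type libraries, against 367, 314 and 376 CPM in moderate mutant and 236, 387 and 204 CPM in moderate wild type libraries. Moderate wild type 2 lay among the mutant libraries, well above the other moderate wild type ones. The averaged log2 difference was 0.58 (SE 0.16, edgeR adjusted p = 0.0279), and with each library left out in turn it was 0.49 to 0.74 and called in 5 of 12 fits. Without the 3 libraries at one end of the first component Fkbp10 was not called either. The log2 ratio of Fkbp14 to Fkbp10 counts averaged -2.98 ± 0.13 in fortified mutant, -3.22 ± 0.03 in fortified wild type, -3.63 ± 0.25 in moderate mutant and -3.38 ± 0.48 in moderate wild type libraries. The mutant groups did not overlap in this ratio, and the wild type groups did.

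Fkbp14 overlaps Plekha8 by 2198 bases and Fkbp10 overlaps Nt5c3b by 2504 bases on the opposite strand, and the sources used here do not state whether counting used strand, so reads in the shared bases cannot be assigned with certainty. Plekha8 averaged 30.5 CPM in fortified mutant, 24.9 in fortified wild type, 24.6 in moderate mutant and 25.2 in moderate wild type libraries, with a log2 folic acid difference of 0.14 (edgeR adjusted p = 0.601). Nt5c3b averaged 46.5 CPM in fortified mutant, 39.8 in fortified wild type, 26.2 in moderate mutant and 35.0 in moderate wild type libraries, with a difference of 0.51 (edgeR adjusted p = 0.0301). Sec23a and Plod2 overlap the unnamed models Gm17529 and Gm38391, which had no row in the count table.

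P3h1, which hydroxylates single prolines in a complex with Crtap and Ppib, had 191, 155 and 148 CPM in fortified mutant and 202, 204 and 193 CPM in fortified wild type libraries. It had 149, 139 and 149 CPM in moderate mutant and 98.0, 127 and 96.9 CPM in moderate wild type libraries. Wild type libraries stood at both ends and mutant libraries between them, and the mutant groups overlapped across folic acid. P3h1 differed by 0.54 on the log2 scale averaged over genotypes (SE 0.10, edgeR adjusted p = 0.0085), made of 0.18 in mutant cells (adjusted p = 0.488) and 0.89 in wild type cells (adjusted p = 0.0503).

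Plod1, which hydroxylates lysines of the triple helix, had 116, 59.4 and 55.6 CPM in fortified mutant and 111, 104 and 122 CPM in fortified wild type libraries, against 79.4, 78.4 and 79.4 CPM in moderate mutant and 34.2, 86.4 and 53.4 CPM in moderate wild type libraries. Libraries at one end of the first component had low Plod1: moderate wild type 1 was the lowest of its group, and fortified mutant 2 and 3 were below every other library but moderate wild type 1 and 3. The averaged log2 difference of 0.46 was not called (SE 0.23, edgeR adjusted p = 0.18), but edgeR called it without the 3 libraries at one end of the first component (0.61, adjusted p = 0.0238) and without the 2 at the other (0.84, adjusted p = 0.0493). Plod2, which hydroxylates lysines of the collagen ends for crosslinking, had 235, 304 and 281 CPM in fortified mutant and 257, 285 and 288 CPM in fortified wild type libraries. It had 295, 195 and 298 CPM in moderate mutant and 255, 215 and 209 CPM in moderate wild type libraries. Plod2 was the flattest of the 10 genes across folic acid, with an averaged log2 difference of 0.17 (SE 0.13, edgeR adjusted p = 0.374).

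**Figure D3:**
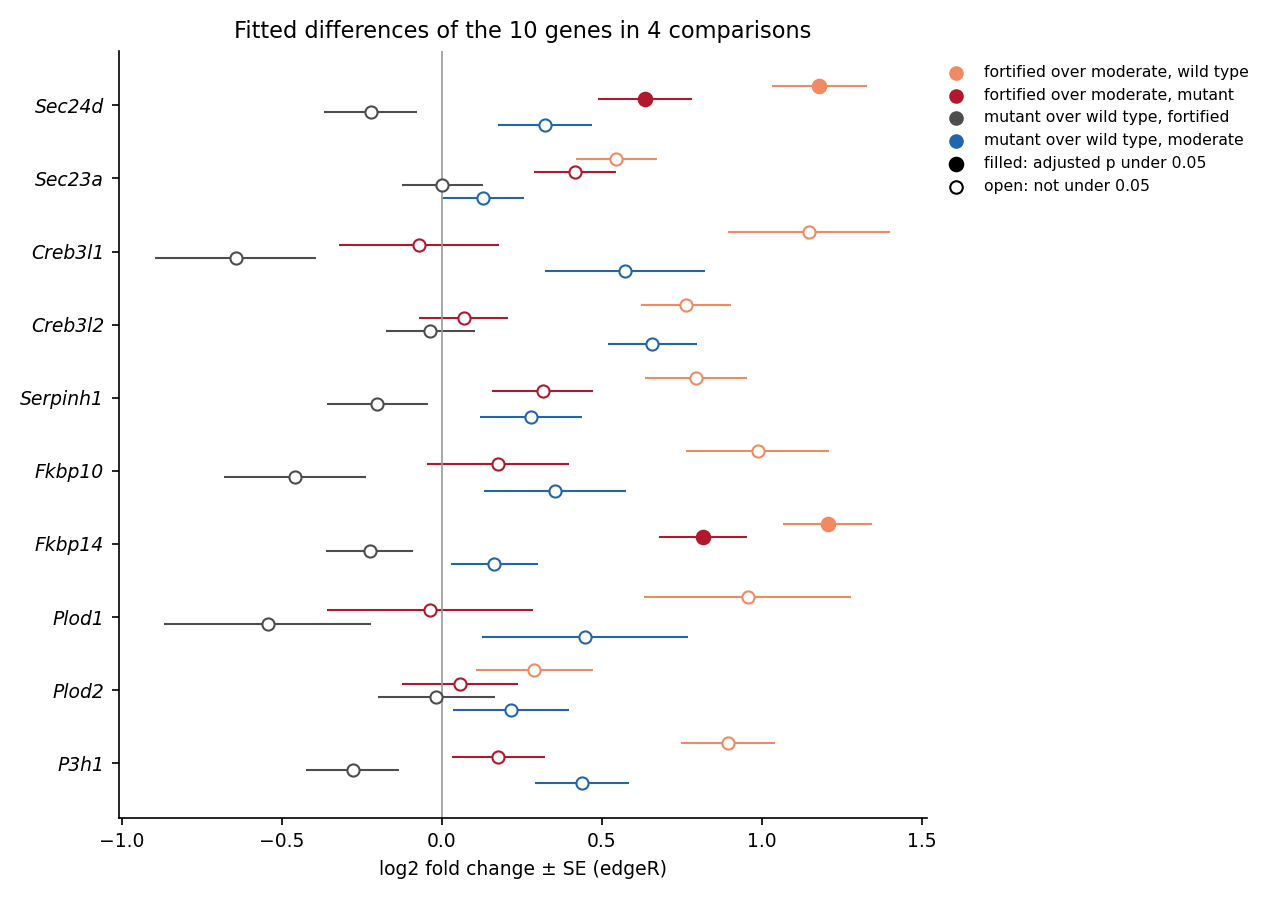
Log2 fold change with its SE, from edgeR, of each gene in 4 comparisons; filled points have an adjusted p under 0.05. The differences for fortified over moderate folic acid in wild type cells lie furthest to the right, up to 1.21 for Fkbp14, and those for mutant over wild type lie right of 0 at moderate folic acid and, apart from Sec23a at 0.00, left of 0 at fortified folic acid.

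In wild type cells taken alone, Fkbp14 and Sec24d were 2 of only 4 genes called among the 15186 tested (0.0263%). The other 2 were Cmklr1, the chemerin receptor, at 29.5 CPM ± 1.27 in fortified and 6.93 ± 0.95 in moderate wild type cells, and Dkk3, a secreted Dickkopf-family protein, at 122 ± 24.4 and 24.7 ± 2.46 (SD, n = 3 each). Groups did not overlap in CPM, fortified above moderate, for 10 of the 10 genes, and for 11% of all tested genes. The gap was narrow for Plod2, with fortified wild type 1 at 256.8 and moderate wild type 1 at 255.1 CPM. Plod2 overlapped when scaled by library totals alone, and Plod1 and Plod2 overlapped on TPM. The median log2 difference of the 10 was 0.92, against -0.04 for all tested genes. The differences held their size with each library left out, at 1.13 to 1.25 for Fkbp14 and 1.11 to 1.23 for Sec24d, while the calls came and went with those of all genes. Fitted with the wild type libraries alone, edgeR called none of the 10 and 0 genes in all (9 and 2134 at an unadjusted p under 0.05). It called none of the 10 without moderate mutant 2, moderate wild type 3 or any 1 of the fortified wild type libraries, when 1 or 2 genes in all were called. Without moderate wild type 1 it called 6 of the 10 and 1012 genes in all, without the 3 libraries at one end of the first component 5 of the 10 and 1298 in all, and without the 2 at the other end 0 and 0. DESeq2 called 8 of the 10 and 1155 genes in all.

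In mutant cells, 2 of the 10 genes rose, Fkbp14 and Sec24d, against 4.19% of all tested genes that rose and 6.93% that changed in either direction. Groups did not overlap, fortified above moderate, for 4 genes (Sec24d, Sec23a, Serpinh1 and Fkbp14), and for 19.6% of all tested genes. Differences were positive for 8 of the 10, with a median of 0.18 against 0.04 for all tested genes. On the log2(TPM + 1) scale, where the median tested gene lay at -0.23 in this comparison, Creb3l2, Serpinh1, Fkbp10, Plod2 and P3h1 turned negative. Once each library was centred on its median, the median of the 10 was 0.16, against 0.10 for all tested genes. Without any 1 of the moderate mutant libraries, or without fortified mutant 2, edgeR called none of the 10 and 0 to 39 genes in all. With each library left out the differences were 0.73 to 0.91 for Fkbp14 and 0.53 to 0.71 for Sec24d. Summed fibroblast markers were lower in fortified mutant libraries, 10420 to 12220 CPM, against 13450 to 14070 CPM in moderate mutant ones. Most of that gap was Fn1, 6286 to 7911 against 9436 to 9838 CPM. Pdgfrb was also lower without overlap, Thy1 was higher, 122.3 to 203.4 against 86.66 to 108.3 CPM, and the other fibroblast markers overlapped. Tendon markers were higher, 299.7 to 408 against 114 to 141 CPM. The part of these markers was not tested.

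Between genotypes at moderate folic acid, edgeR called none of the 10 genes and 0% of all tested genes, and DESeq2 called 1 of the 10, Creb3l2, and 42 genes in all. At an unadjusted p under 0.05 edgeR gave 4 of the 10, Sec24d, Creb3l1, Creb3l2 and P3h1, all higher in mutant cells, and 1195 tested genes (7.87%), 2.73% of all being higher and 5.14% lower. The differences were positive for 10 of the 10, with a median of 0.34 against -0.05 for all tested genes, and the largest was that of Creb3l2, 0.66 (SE 0.14, edgeR adjusted p = 0.588). Mutant libraries lay above wild type ones without overlap for 5 genes, Sec24d, Creb3l1, Creb3l2, Serpinh1 and P3h1, and for 6.34% of all tested genes. Of the marker lists, adipocyte markers alone separated these groups, 1.70 to 2.35 CPM in moderate mutant and 2.86 to 6.22 CPM in moderate wild type libraries, and their part was not tested.

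At fortified folic acid the sign turned. edgeR again called none of the 10 genes and 0% of all tested genes, and DESeq2 called none of the 10 and 7 genes in all. At an unadjusted p under 0.05 edgeR gave Creb3l1, with a log2 difference of -0.64 (SE 0.25, adjusted p = 0.939), and 500 tested genes (3.29%). The differences were negative for 9 of the 10, with a median of -0.22 against 0.01 for all tested genes. Sec23a stood at 0.00, and its sign, like those of Creb3l2 and Plod2 near 0, changed with the setting. Mutant libraries lay below wild type ones without overlap for 5 genes, Creb3l1, Serpinh1, Fkbp10, Fkbp14 and P3h1, and for 5.62% of all tested genes. The gap between the nearest libraries, mutant 1 and wild type 3, was narrow for Serpinh1 (2657 and 2678 CPM), Fkbp14 (54.3 and 54.5 CPM) and P3h1 (190.8 and 192.5 CPM). Summed fibroblast markers were also lower without overlap, 10420 to 12220 CPM in fortified mutant and 14630 to 17000 CPM in fortified wild type libraries. Most of that gap was Fn1, 6286 to 7911 against 10310 to 11540 CPM. Pdgfrb and Thy1 were also lower without overlap, while Vim, Pdgfra, Dcn, Lum, Prrx1, Twist1 and Twist2 overlapped. Adipocyte markers were lower without overlap too, 2.07 to 3.00 against 4.08 to 5.89 CPM. The part of these markers in the differences of the 10 genes was not tested.

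For 3 genes, Creb3l1, Serpinh1 and P3h1, mutant libraries were above wild type at moderate folic acid and below it at fortified folic acid, without overlap in either comparison. The same crossing was seen in 44 tested genes, 0.29%. Each of the 3 crossings rests on a narrow gap. At fortified folic acid mutant 1 and wild type 3 stood at 2657 and 2678 CPM for Serpinh1 and at 190.8 and 192.5 CPM for P3h1. At moderate folic acid mutant 2 and wild type 2 stood at 89.3 and 89.2 CPM for Creb3l1. On TPM the 3 genes still crossed, with fortified mutant 1 and wild type 3 at 2239 and 2310 TPM for Serpinh1. Scaled by library totals alone, Creb3l1 still crossed, and Serpinh1 and P3h1 did not. For Serpinh1, fortified mutant 1 had 126014 of 46540459 counts, a larger share than the 122702 of 46028103 in wild type 3. For P3h1 it had 9049 of 46540459 counts, a larger share than the 9011 of 48475920 in fortified wild type 2. The interaction, which asks whether the folic acid difference of mutant cells is smaller or larger than that of wild type cells, was negative for 10 of the 10 genes, with a median of -0.62 against 0.04 for all tested genes. It was called by edgeR for none of the 10 and for 0% of all tested genes, and DESeq2 and limma-voom called none of the 10 either. At an unadjusted p under 0.05 edgeR gave 5 of the 10 genes, all negative, and 1015 tested genes (6.68%), 2.13% of all being negative. The largest was that of Creb3l1 at -1.22 (SE 0.35, edgeR adjusted p = 0.708), and the smallest that of Sec23a at -0.13. The comparisons of folic acid and of genotype share their libraries, so these signs are not separate observations.

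**Figure D4:**
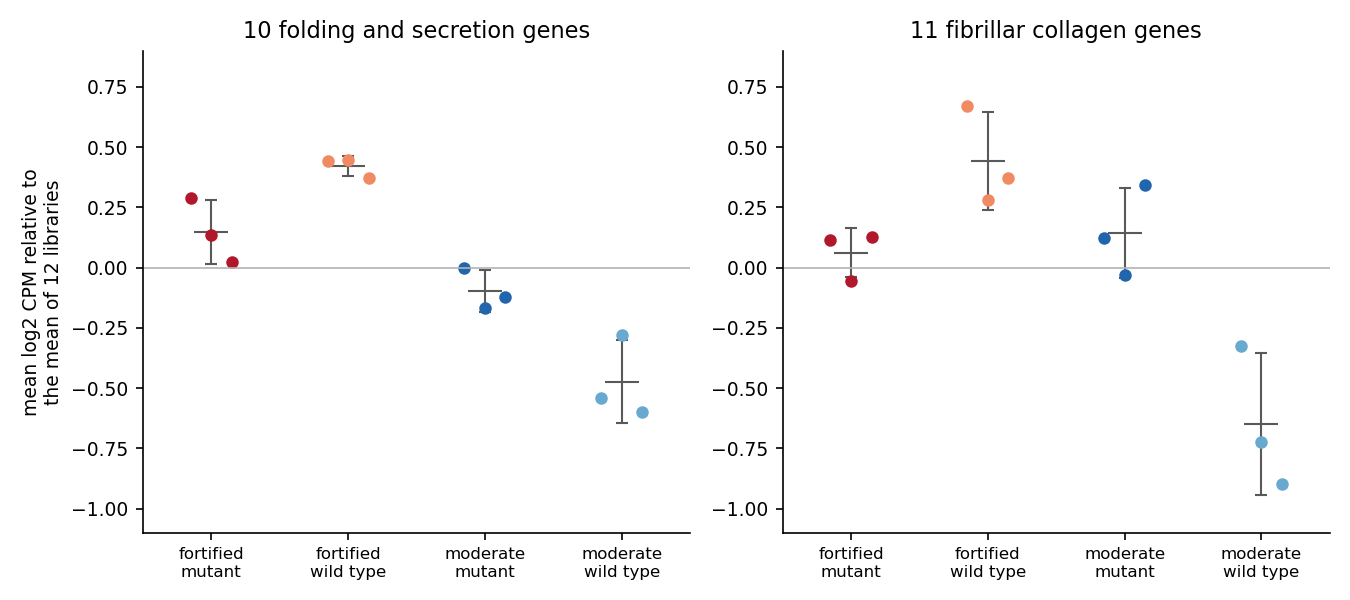
Mean log2 CPM of a list relative to its mean over the 12 libraries, for the 10 genes (left) and for 11 fibrillar collagen chains (right). Points are libraries, lines are means and bars SDs of 3 libraries; the 10 genes order the groups from fortified wild type (0.37 to 0.45) to moderate wild type (-0.60 to -0.28).

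Averaged over the 10 genes, log2 CPM relative to the mean of the 12 libraries was 0.29, 0.14 and 0.02 in fortified mutant, 0.44, 0.45 and 0.37 in fortified wild type, -0.0005, -0.17 and -0.12 in moderate mutant and -0.54, -0.28 and -0.60 in moderate wild type libraries. The 4 groups did not overlap, with fortified wild type highest and moderate wild type lowest. Group means followed that order at both ends for most genes: the highest was in fortified wild type for 9 of the 10 and the lowest in moderate wild type for 10 of the 10. The share of all tested genes with this order was not counted, so these counts have no background and only describe genes chosen with results known. Over the 45 pairs of the 10 genes, Pearson's r across the 12 libraries had a median of 0.73, from 0.06 to 0.97, the highest for Sec24d with Fkbp14. After group means were removed the median was 0.12, from -0.61 to 0.90. The libraries share their group and scaling, so these are descriptions.

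Outside the 10, the genes whose log2 CPM followed this average most closely over the 12 libraries were Srebf1 (r = 0.963), a transcription factor of lipid synthesis, Prrc1 (0.960), Rcn3 (0.957), an ER calcium-binding protein, Col1a1 (0.953), the main chain of type I collagen, and Atp8b2 (0.951). With group means removed, r was 0.863 for Srebf1, 0.921 for Prrc1, 0.789 for Rcn3, 0.864 for Col1a1 and 0.820 for Atp8b2, each over 12 libraries. Col1a1 averaged 5889 CPM in fortified mutant, 11190 (SD 2467) in fortified wild type, 4096 in moderate mutant and 2806 (SD 1664) in moderate wild type libraries. The log2 ratio of Serpinh1 to Col1a1 was -1.21 ± 0.29 in fortified mutant, -1.94 ± 0.37 in fortified wild type, -1.02 ± 0.17 in moderate mutant and -0.59 ± 0.90 in moderate wild type libraries. The moderate wild type libraries ranged from -1.59 to 0.17 in this ratio, and the lowest of them lay within the range of fortified wild type. To Col1a2 the ratio of Serpinh1 was -0.55 ± 0.54 in fortified mutant, -1.42 ± 0.35 in fortified wild type, -0.77 ± 0.13 in moderate mutant and -0.38 ± 0.92 in moderate wild type libraries. To Col3a1 it was 0.19 ± 0.47 in fortified mutant, -0.17 ± 0.45 in fortified wild type, -0.077 ± 0.08 in moderate mutant and 0.48 ± 0.17 in moderate wild type libraries. Fortified over moderate, the mean ratio was thus lower in wild type cells for all 3 chains, and in mutant cells lower for Col1a1 but higher for Col1a2 and Col3a1, by less than the SD of fortified mutant.

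Other genes of the pathway were taken from 6 wider lists, which are read beside the 8.9% of tested genes that rose and 8.86% that fell with folic acid averaged over genotypes. Of 24 tested COPII coat and cargo receptor genes 9 rose and 0 fell. Sec13, of the outer coat, had 201 CPM ± 23.4 in fortified mutant, 188 ± 27.2 in fortified wild type, 79.7 ± 2.36 in moderate mutant and 118 ± 25.8 in moderate wild type cells (SD, n = 3 each), a log2 difference of 1.00 (edgeR adjusted p = 0.00192). Kdelr3, a retrieval receptor for ER proteins, differed by 1.23 (edgeR adjusted p = 0.00238). Sec16b, of ER exit sites, differed by 1.78 at levels near 6.64 CPM in fortified mutant, 10.3 in fortified wild type, 2.88 in moderate mutant and 2.03 in moderate wild type cells. The others were Surf4 (0.67) and Lman1 (0.50), receptors for soluble cargo, the coat GTPase Sar1a (0.49), Kdelr1 (0.63), Kdelr2 (0.76) and Tmed2 (0.37). The paralogues of the coat members did not pass: Sec23b was at 0.13, Sec24a at 0.07, Sec24b at -0.25 and Sec24c at 0.07, and Mia3, the receptor TANGO1 that loads procollagen, was at 0.15 (edgeR adjusted p = 0.371). The median of the list was 0.22.

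Of 16 genes of ER folding 6 rose and 0 fell, with a list median of 0.57. Ppib, cyclophilin B, which works in the complex of P3h1, had 418 CPM ± 41.4 in fortified mutant, 407 ± 51.7 in fortified wild type, 191 ± 12.1 in moderate mutant and 245 ± 51.0 in moderate wild type cells, a log2 difference of 0.93 (edgeR adjusted p = 0.00248). The isomerases Fkbp7 (1.33), Fkbp9 (0.63) and Fkbp11 (0.85), the collagen-binding protein Sparc (0.80) and the zinc transporter Slc39a13 (0.51) rose too. Slc39a13 was the least stable, called in 7 of 29 other fits. The general ER chaperone Hspa5 was at -0.24 and did not pass (edgeR adjusted p = 0.438). Like Hspa5, Canx and Tmem38b had both fortified means below both moderate ones. Calr, Hsp90b1, Pdia3, Pdia4, Pdia6, Sdf2l1 and Dnajb11 had both fortified means above both moderate ones, and were not called either. Calr averaged 1158 CPM ± 449 in fortified mutant, 1352 ± 449 in fortified wild type, 536 ± 99.0 in moderate mutant and 966 ± 523 in moderate wild type cells.

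Of 11 further hydroxylase and glycosyltransferase genes 4 rose and 1 fell, with a median of 0.47. P4hb, shared by prolyl 4-hydroxylase and protein disulfide isomerase, rose by 0.72, P4ha3, a catalytic subunit, by 0.76, and the P3h1 relatives P3h3 by 0.77 and P3h4 by 0.55. P3h2, which hydroxylates mostly basement membrane collagen, fell, with 8.67 CPM ± 2.38 in fortified mutant, 9.64 ± 2.42 in fortified wild type, 20.2 ± 4.86 in moderate mutant and 18.8 ± 5.29 in moderate wild type cells (log2 difference -1.09, edgeR adjusted p = 0.00844). Crtap, the partner of P3h1, was at 0.39 (edgeR adjusted p = 0.0732) and Plod3 at -0.12, and neither passed.

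Of 8 tested genes around the CREB3 family 1 rose and 1 fell. Xbp1, a transcription factor of the unfolded protein response, had 105.6 CPM ± 10.9 in fortified mutant, 112 ± 9.18 in fortified wild type, 52.1 ± 3.37 in moderate mutant and 56.2 ± 15.2 in moderate wild type cells (1.01, edgeR adjusted p = 0.00201). Atf6, which is cut by the same Golgi proteases as the CREB3 family, was at 72.7 CPM ± 11.7 in fortified mutant, 77.8 ± 10.8 in fortified wild type, 185 ± 68.6 in moderate mutant and 141 ± 55.3 in moderate wild type cells (-1.11, edgeR adjusted p = 0.0095). Of 13 genes of procollagen processing and crosslinking 2 rose, the amino-propeptidases Adamts2 (1.64) and Adamts14 (0.53), and the crosslinking enzyme Lox was at -0.16. Of its relatives, Loxl2 and Loxl3 had both fortified means above both moderate ones, Loxl4 had both below, and Loxl1 had neither. None of these was called. Of 11 fibrillar collagen chains 6 rose, Col1a1 (1.26), Col24a1 (1.02), Col1a2 (0.95), Col3a1 (0.78), Col5a1 (0.77) and Col11a1 (0.66), and Col11a2 fell (-1.25). On log2(TPM + 1), limma called Col1a1 alone of the 6 chains that rose, and Col24a1 and Col1a2 were called in 15 and 17 of 29 other fits. Signs of the called genes of the 6 lists did not change in those fits.

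**Figure D5:**
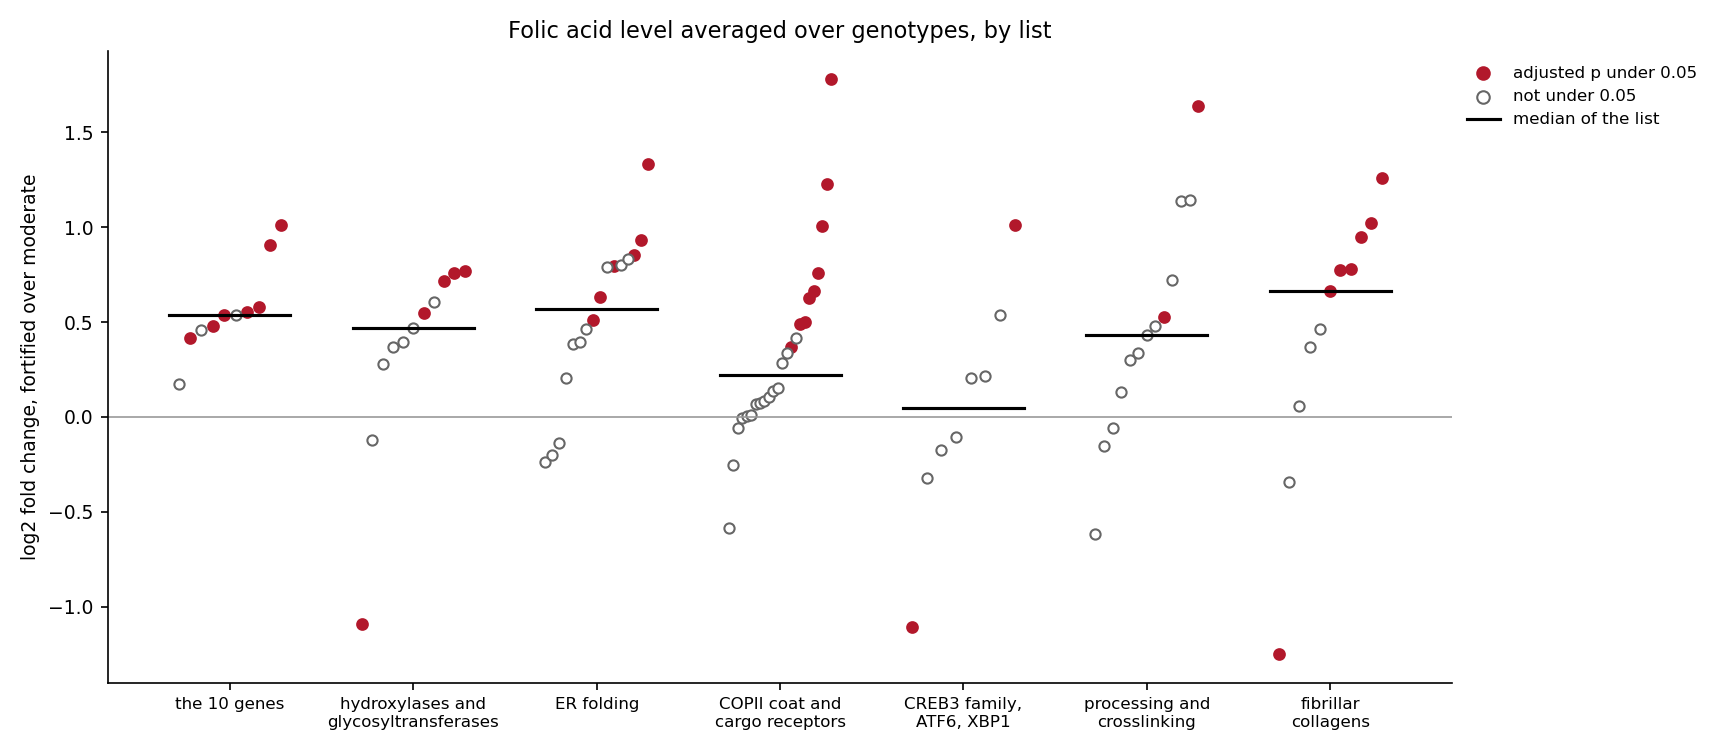
Log2 fold change for fortified over moderate folic acid, averaged over genotypes, of the 10 genes and of 6 wider lists. Each point is a gene, filled where the edgeR adjusted p is under 0.05, and bars are list medians, from 0.05 for the CREB3 family list to 0.66 for the fibrillar collagens.

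Within mutant cells, the called genes of the wider lists were Sec13 (1.33), Ppib (1.13), Kdelr3 (1.11), Xbp1 (1.02), Kdelr2 (0.76), P3h4 (0.52) and Sar1a (0.52), which rose, and P3h2 (-1.22) and Atf6 (-1.35), which fell, beside 4.19% of all tested genes that rose and 2.74% that fell. Calls of Kdelr2, P3h4 and Sar1a were the least stable, made in 11, 12 and 14 of 30 other fits, and P3h4 and Sar1a were at 0.18 each on log2(TPM + 1). No fibrillar collagen was called in mutant cells, where the list median was -0.01, against 0.04 for all tested genes, and 1 chain, Col11a2 (-1.52), was at an unadjusted p under 0.05 by edgeR, against 25.6% of all tested genes. DESeq2 called 1 collagen chain and 2345 genes in all there. In wild type cells edgeR called 0 genes of the 6 lists, with 8 hydroxylase, 6 folding, 12 COPII, 3 CREB3 family, 8 processing and 6 collagen genes at an unadjusted p under 0.05, against 19.6% of all tested genes. DESeq2 called 6, 5, 9, 1, 4 and 6 genes of the lists in the same order, and 4.76% of all 24279 genes. The smallest adjusted p there was 0.0503, shared by Col11a1 (1.46), Kdelr3 (1.35), Adamts2 (2.55) and Adamts14 (1.11), the value also reached by P3h1. The collagen list median was 1.45 in wild type cells, against -0.04 for all tested genes.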

How the data were processed

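Gene-level salmon output for 12 libraries was deposited by the authors in 2 units, expected counts and TPM, with mm10 as build per the submitters' processing notes; no source used here gives the salmon version, annotation or strand setting. Columns carry unexplained letters, and their diets rest on the column numbers in the labels. For testing, each deposited expected count was rounded. Deposited TPM served for levels between genes and for alternatives. Libraries held 39339131 to 48475920 counts, and replicate variation (common biological coefficient of variation 0.332) exceeds counting error at the members' levels.

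The filter was filterByExpr at minimum count 10 and minimum total 15, leaving 15186 genes without 9093 others. TMM factors were 0.91 to 1.08, and CPM are counts per 1000000 so scaled. One edgeR 4.0.16 model in R 4.3.3 (glmQLFit, glmQLFTest, a mean for each of 4 groups, Benjamini-Hochberg over all tested genes, threshold 0.05) gave every comparison. Averages over lists used log2 CPM with a prior count of 2. "No overlap" means that the lowest library of the higher group exceeds the highest of the lower group. The procedure was tested on simulated data.

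The 10 genes, the wider lists and the marker lists were chosen with earlier results of these data known. The naming rule took the 10, called genes of each wider list, up to 2 of each list with the smallest p, and the 5 genes most correlated with the mean of the 10. Other named genes (coat paralogues, Mia3, Hspa5, Crtap, Plod3, Lox, Cmklr1, Dkk3 and overlapping genes) were chosen after their values were seen. Alternatives were DESeq2 1.42.0, limma 3.58.1 (voom with quality weights, log2(TPM + 1), log2(TPM + 0.1)), scaling by library totals alone or by median of ratios, no filter, a filter of 1 CPM in 3 libraries, a replicate block, only the groups compared, Xist as covariate, leaving out the 3 libraries apart, and leaving out each library. Chosen after seeing the data were removal of length and GC trends (for 14616 genes with a value), TPM centred on each library's median, only the 8 libraries with Xist, and leaving out moderate wild type 2 and 3.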

Additional observations from a re-analysis of the deposited data

How the results depend on the processing

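With folic acid averaged over genotypes, the count of 7 of the 10 genes called stayed between 6 and 8, except for 3 on log2(TPM + 1), 3 on log2(TPM + 0.1) and 0 with only the 8 libraries with Xist; leaving out 1 library gave 6 to 8. In wild type cells, the count of 2 became 8 with DESeq2, 0 on log2(TPM + 1), 1 on log2(TPM + 0.1), 1 with library totals alone, 4 with no low-count filter, 0 with only the groups compared, 5 without the 3 libraries apart and 0 without the 2 at the other end of the first component. It became 4 with length and GC trends removed, 4 on median-centred TPM and 0 with the 8 Xist libraries, and leaving out 1 library gave 0 to 6. In mutant cells, the count of 2 became 4 with limma-voom, 0 on log2(TPM + 1), 0 on log2(TPM + 0.1) and 1 with the length trend removed, and leaving out 1 library gave 0 to 3. Between genotypes at moderate folic acid DESeq2 called 1 and the other settings 0; at fortified folic acid and for the interaction every setting run called 0 of the 10. Over all tested genes, leaving out 1 library gave 1411 to 4025 calls averaged over genotypes, 0 to 2073 in mutant cells and 1 to 1012 in wild type cells, and the other settings gave 0 to 3961, 106 to 5273 and 0 to 1298. Between genotypes at moderate folic acid, at fortified folic acid and for the interaction, DESeq2 called 42, 7 and 5 genes, and edgeR without the 2 libraries called 248, 0 and 312. The causes were not tested, and some fits also had fewer libraries. Without the 3 libraries apart, fortified mutant has 1 library, without the 2 moderate wild type has 1, and with the 8 Xist libraries each wild type group has 1, which the fit assumes to vary like the others. Uncentred TPM moved the median tested gene by -0.15 averaged over genotypes, -0.23 in mutant cells, -0.09 in wild type cells and 0.12 between genotypes at moderate folic acid.

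Among the 10 genes, every sign that turned was of a difference that edgeR did not call. On log2(TPM + 1) and log2(TPM + 0.1) the difference in mutant cells became -0.26 and -0.27 for Creb3l2, -0.17 and -0.17 for Fkbp10, -0.17 and -0.17 for P3h1, -0.26 and -0.26 for Plod2 and -0.025 and -0.025 for Serpinh1, and the averaged difference of Plod2 became -0.043 on both. Serpinh1, Fkbp10 and P3h1 were called when averaged over genotypes, and their sign there did not turn. Without the 3 libraries apart, the difference in mutant cells was 0.11 for Creb3l1, -0.10 for Creb3l2, 0.52 for Plod1 and -0.20 for Plod2, and Plod1 between genotypes at fortified folic acid was 0.033. With length and GC trends removed, Plod1 in mutant cells was 0.026 and Plod2 was -0.0004. Between genotypes at fortified folic acid, Creb3l2 was 0.025 with library totals alone. Plod2 there was 0.094 with limma-voom, 0.046 with library totals alone, 0.013 on median-centred TPM and 0.081 with the 8 Xist libraries, which also gave 0.013 for its interaction. Sec23a there was -0.042 on both TPM scales, -0.0005 with no filter, -0.0007 without the 2 libraries, -0.035 with the GC trend removed and -0.027 with length and GC trends removed. Leaving out 1 library gave, in mutant cells, -0.19 to 0.011 for Creb3l1, -0.057 to 0.17 for Creb3l2, -0.46 to 0.13 for Plod1 and -0.12 to 0.16 for Plod2. Between genotypes at fortified folic acid it gave -0.14 to 0.024 for Creb3l2, -0.12 to 0.080 for Plod2 and -0.054 to 0.056 for Sec23a.

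Deviations of same-numbered libraries from their group means correlated between -0.20 and 0.24. For folic acid in wild type cells all 3 pairs were positive, at 0.10, 0.21 and 0.093, and the other comparisons had pairs of both signs. With 3 libraries per group these correlations cannot tell whether a number marks a shared litter or day. With the replicate block, edgeR called 7 of the 10 genes averaged over genotypes, 2 in mutant cells, 3 in wild type cells and 0 in the other comparisons, and the difference of Sec23a between genotypes at fortified folic acid was -0.0002.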
